A study of Prunus persica with 2 samples.

Results

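The miRNAs linked to sulfate and phosphate supply were chosen by name from the list of peach fruit miRNAs, and their targets were all transcripts paired with them in the degradome list. All 4 names, miR395, miR399, miR827 and miR2111, were among the 557 known miRNAs of the 886 listed names and arms. Of the 469 listed degradome pairs, 4 pairs on 4 transcripts belonged to them, 3 to miR395 and 1 to miR827. No pair was listed for miR399 or miR2111.

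Sulfate and phosphate are taken up and shared out in plants under the control of a small set of miRNAs that accumulate when the nutrient runs short. miR395 is known for cutting transcripts of ATP sulfurylase, the enzyme that activates sulfate for assimilation, and of sulfate transporters. Of the phosphate-linked miRNAs, miR399 is known for PHO2, a ubiquitin-conjugating enzyme that limits phosphate uptake, miR827 for transcripts with an SPX domain (NLA in *Arabidopsis*, SPX-MFS transporters in rice), and miR2111 for F-box kelch transcripts. A plant miRNA guides the cut of its target opposite its bases 10 and 11.

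The data came from yellow-fleshed fruit of the peach cultivar 'Troubador' (spelled 'Troubadour' in the study's text) grown under standard field conditions in Nanjing. Fruit was sampled at 5 times from 35 to 105 days after full bloom (the others were 55, 75 and 90 days). RNA of the 5 stages was mixed before the small RNA library was sequenced. The degradome sample is listed with the same 5 stages, but the study's text does not say how its RNA was pooled. There was 1 small RNA library and 1 degradome library, so no value has a replicate, no stage can be compared with another, and no difference between miRNAs or targets was tested against biological spread. The entries of the small RNA list summed to 2308209 reads and the distinct sites of the degradome list to 8901 reads. A sequence listed under several names enters the first sum each time. A read placed on several transcripts would enter the second sum each time. Intervals are exact at the 95% level. They account for counting error alone, as PCR copies were not marked and 2 reads may stem from 1 molecule.

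The mature sequences listed for the 4 miRNAs are shown because the cut of each target follows from them. Capitals mark the seed, bases 2 to 8 counted from the 5′ end.
miR827: uUAGAUGAccaucaacaaaca
miR399: cUGCCAAAggagaucugcucag
miR395: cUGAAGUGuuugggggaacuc
miR2111: uAAUCUGCauccugagguuu
miR827 and miR395 were 21 nt long, miR399 22 nt and miR2111 20 nt. The phosphate-linked miR827 and miR2111 started with U, and miR399 and miR395 with C. The 4 seeds differed from each other, and no other listed miRNA carried any of them at its own bases 2 to 8. The comparison covered that position only. The predicted arms m0094-3p and m0110-3p, described below, begin with the letters of the miR399 seed, so these letters are not unique to miR399. The nearest other sequence in the list was 6 edits (substitutions, insertions or deletions) away from miR399, 7 from miR395 and 8 from each of the other two.

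miR827 was the most abundant of the 4 in fruit, followed by miR399, miR395 and miR2111. miR827 had 269 raw reads, with a counting interval of 238 to 303. miR399 had 142 reads, with an interval of 120 to 167. miR395, the sulfate-linked miRNA, had 17 reads, with an interval of 9.90 to 27.2. These intervals did not overlap between any of the 3. miR2111 had 3 reads, with an interval of 0.619 to 8.77.

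miR827 was read 1.89 times as often as miR399 (interval 1.54 to 2.34). miR399 was read 8.35 times as often as miR395 (5.04 to 14.7). miR395 was read 5.67 times as often as miR2111, with a wide interval of 1.64 to 30.2 because of the 3 reads. So the order of the 4 was larger than counting error at each step.

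**Figure D1:**
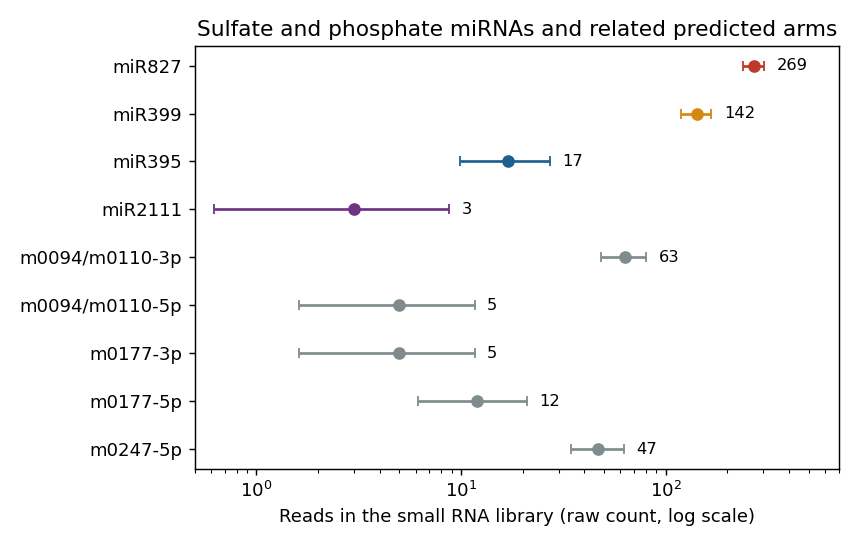
Raw reads in the small RNA library (log axis) of the 4 miRNAs (coloured) and of the predicted arms described in the text (grey); points are counts and bars exact Poisson intervals. The reads fall from 269 for miR827 to 142 for miR399, 17 for miR395 and 3 for miR2111, and m0094 and m0110 share 1 sequence per arm.

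Set against the whole list, miR827 and miR399 were among the better-read known miRNAs and miR2111 was near the floor. miR827 ranked at 30 and miR399 at 35 of the 557 known miRNAs, whose median was 1 read. Neither differed beyond counting error from its neighbours in that order. miR827 stood beside the copper-linked miR408, with 270 reads, at a ratio of 0.996 (0.838 to 1.18). miR399 stood beside miR403, with 153 reads, at a ratio of 0.928 (0.733 to 1.17).

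miR395 ranked at 69, tied with 2 other known miRNAs, and miR2111 at 158, tied with 41 others. All 4 were a small part of the listed miRNA reads, of which miR156 alone held 1910151 of 2308209. miR827 made up 0.0117% of them (interval 0.0103 to 0.0131%) and miR395 0.000737% (0.000429 to 0.00118%). With miR156 and miR157 left out of the total, these shares were 0.117% and 0.00742%.

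Of the other nutrient-linked miRNAs looked up for comparison, those linked to copper lay between 3 and 270 reads, and miR169 lay above all 4. The copper-linked miR397 had 33 reads, and miR398 and miR857 had 3 reads each. miR169, linked to nitrogen supply, had 4207 reads. miR778, also linked to phosphate in *Arabidopsis*, had no entry in the list.

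One of the predicted miRNAs of the list, m0247, carried miR827 in its hairpin. The sequence of miR827 was searched in the 266 predicted hairpins whose sequences were at hand and was found letter for letter in 1, m0247, while those of miR395, miR399 and miR2111 were found in 0. The hairpin is shown with both arms in capitals, the predicted 5p arm first and miR827 second, and with T for U as the sequence table writes it.
m0247: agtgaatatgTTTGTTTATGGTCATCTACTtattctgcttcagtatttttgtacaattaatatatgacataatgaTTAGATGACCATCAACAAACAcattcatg
In the fold computed from these 104 nt, 17 bases of miR827 paired with the 5p arm. The 3′ end of miR827 reached 2 nt beyond the 5p arm, and that of the 5p arm 1 nt beyond miR827. The 5p arm was listed under m0247 with 47 reads (interval 34.5 to 62.5). miR827 was read 5.72 times as often as this opposite arm (4.19 to 7.98). Whether the reads of miR827 came from this hairpin alone was not tested.

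Predicted arms like miR399 were also listed, a comparison that was chosen after their sequences had been seen. The 3p arms of m0094, m0110 and m0177 held the letters GCCAAAG within their first 9 bases, as miR399 does. They are printed to show what they share with miR399, with the seed in capitals.
m0094-3p and m0110-3p: tGCCAAAGaagagttgcccta
m0177-3p: cGCCAAAGgagagttgccctt
Aligned on these letters without gaps, each of the 2 sequences differed from miR399 at 6 of 21 compared bases. The sequence of m0094-3p and m0110-3p had 63 reads (48.4 to 80.6). Both names carry the same 112-nt hairpin, so these reads were counted 1 time. m0177-3p had 5 reads (1.62 to 11.7).

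The balance of the arms differed between these hairpins. For m0094 and m0110 the miR399-like 3p arm had 12.6 times the reads of the 5p arm, which had 5 (interval of the ratio 5.12 to 40.1). For m0177 the 5p arm had 12 reads, and the ratio of the 3p to the 5p arm was 0.417 (0.115 to 1.27), which was within counting error of equal arms. Adding the 2 like sequences to miR399 gave 210 reads and brought the ratio of miR827 to this sum to 1.28 (1.07 to 1.54).

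The degradome library was read for the cut ends of the target transcripts. The adaptor for the start of a read joined only RNA ends that carry a monophosphate, so a degradome read starts at such an end. A read alone does not show that a miRNA guided a cut there. For each pair the list gives an alignment score (0 is full pairing), the number of reads that start at the site, a category (0 for the single highest position of the transcript, 4 for a position with 1 read) and a p that CleaveLand computes for the pair. Gene descriptions are those of the best *Arabidopsis* match in the study's annotation. Nucleotides are counted from the start of the transcript, and the letters of the sites were not at hand, so no site sequence is printed.

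Degradome reads were abundant at the listed site of 1 phosphate-linked and 1 sulfate-linked transcript, and 1 read each was found on the other 2. ppa004388m, described as an SPX domain protein, a domain known for sensing phosphate state, had 525 reads at nucleotide 151 of the stretch 140 to 160 that pairs with miR827 (interval 481 to 572). ppa005353m, described as ATP sulfurylase APS1, had 254 reads at nucleotide 579 of the stretch 568 to 588 that pairs with miR395 (interval 224 to 287). Both were category 0 sites, the single highest position of their transcript. The SPX site had 2.07 times the reads of the ATP sulfurylase site (1.78 to 2.41).

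The remaining transcripts listed with miR395 were hardly read. ppa002519m, described as the sulfate transporter AST56, which moves sulfate across membranes, had 1 read at nucleotide 57 of the stretch 46 to 66. ppa004646m, described as BAS1, a steroid hydroxylase known for inactivating brassinosteroids, had 1 read at nucleotide 468 of the stretch 457 to 477. A single read has a counting interval of 0.0253 to 5.57. The normalized value of the site on ppa004646m was 0.5, below its raw count, whereas at the other 3 sites the normalized value equalled the raw reads. Normalized values below the raw count occurred elsewhere in the list: miR5213 had 10 reads over 10 transcripts and a normalized sum of 1. Whether the read on ppa004646m also fits another transcript was not tested.

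**Figure D2:**
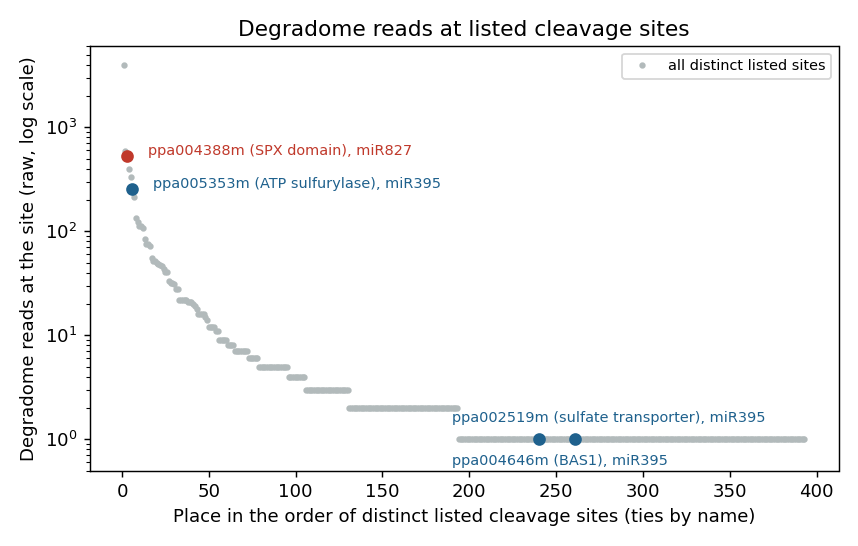
Raw degradome reads (log axis) at the 393 distinct listed sites, ordered from most to fewest reads; coloured points are the sites of miR827 (red) and miR395 (blue). The SPX domain site with 525 reads and the ATP sulfurylase site with 254 lie among the highest sites, and the sulfate transporter and BAS1 sites lie at 1 read.

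The contrast among the transcripts listed with miR395 was large against counting error and did not follow the alignment score. ATP sulfurylase had 254 times the reads of the sulfate transporter (counting interval 45.2 to 10071). The pairing with the transporter had the better score, 2, against 2.5 for ATP sulfurylase and 4 for BAS1. ATP sulfurylase held 99.2% of the 256 reads of miR395 sites. Among the 15 known miRNAs listed with at least 2 transcripts and 50 degradome reads, the share of the top transcript ranged from 21.2 to 99.2%. The median was 64.6%, with names that share sites counted separately. The share of miR395 was the highest, followed by miR394 at 96.2%, with 75 of 78 reads. Whether these shares differ beyond counting error was not tested. The abundance of the transcripts was not measured in these libraries, so the extent of cutting and the amount of transcript cannot be told apart.

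The CleaveLand p was 0.00426 for the SPX pair, whose alignment score was 1, and 0.00327 for the ATP sulfurylase pair. It was 0.592 for the sulfate transporter and 0.435 for BAS1, so the p gave no support for a cut at either single read. Thus 2 of the 4 pairs had a p under 0.05, where 18.6% of all listed pairs and 17.9% of those of known miRNAs did. The same 2 had a p under 0.01, as 7.68% of all pairs did, and the same 2 were of category 0, as 14.5% of all pairs were. The other 2 were of category 4, with a single read, as 47.3% of all pairs were. In pairing, 3 of the 4 had a score of at most 2.5, against 17.7% of all pairs, and the SPX pair alone had a score of at most 1, against 7.04%. The lowest p of the whole list was that of ATP sulfurylase, shared with 2 pairs of other miRNAs. The p did not follow the reads: 0.00327 was given to 3 pairs of the same score and category with 22 to 254 reads, and 0.00426 to 4 pairs with 3 to 525 reads. With Benjamini-Hochberg adjustment over the 469 pairs both became 0.125, which is the lowest adjusted p of the list, and 0 of all pairs stayed under 0.05. This adjustment takes the listed pairs as all that were tested, which could not be checked.

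Among the 393 distinct sites, whose median was 1 read, the SPX site ranked at 3 and the ATP sulfurylase site at 6. The SPX site was next to ppa003296m, a target of miR397 with 592 reads, at a ratio of 0.887 whose interval of 0.787 to 0.999 just left out 1. Below it came ppa003344m, a target of miR393 with 394 reads, at a ratio of 1.33 (1.17 to 1.52). The ATP sulfurylase site lay below ppa020475m, paired with miR1509 and read 334 times, at a ratio of 0.760 (0.643 to 0.898). It did not differ beyond counting error from the next site, ppa022685m, paired with miR396 and read 216 times, at a ratio of 1.18 (0.977 to 1.42).

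All 4 sites lay opposite base 10 of the miRNA, counted from its 5′ end, with an aligned stretch as long as the miRNA. CleaveLand searches at this position, and 90.2% of all listed pairs lay there, so this checks the list and adds no evidence of cutting. None of the 4 transcripts was listed with a second miRNA name, whereas 41 of the 379 transcripts of the list were. A search of the descriptions for other genes of sulfate assimilation and transport, SPX, phosphate transport, ubiquitin conjugation and kelch proteins found 3 transcripts among the 70 of 379 that had a description. These were ATP sulfurylase, the sulfate transporter and the SPX domain transcript themselves, so neither a ubiquitin-conjugating enzyme nor a kelch transcript was met among the described ones.

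Set against the miRNA itself, the degradome reads of miR395 were many for few miRNA reads. miR395 had 256 degradome reads over its 3 pairs and 17 miRNA reads, or 15.1 degradome reads per miRNA read (interval 9.22 to 26.3). miR827 had 525 degradome reads for 269 miRNA reads, or 1.95 (1.68 to 2.27). The intervals did not overlap. The order was opposite to that of the miRNA reads, in which miR827 was 15.8 times higher (9.70 to 27.6). As the miRNA reads are the divisor, this reversal is no separate observation, and miR827 had more reads of both kinds. The reads come from 2 libraries of different kinds, so the value 1 has no meaning of its own and only the order is read.

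**Figure D3:**
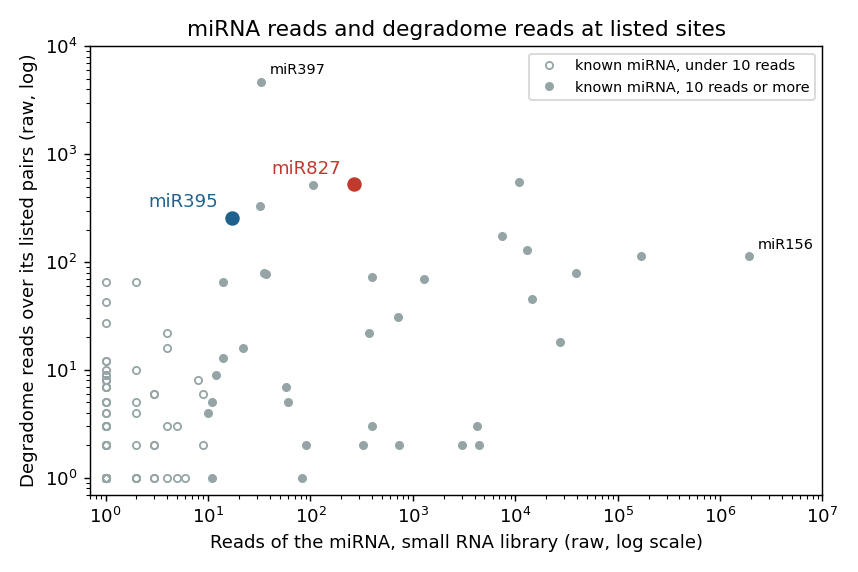
Reads of each of the 114 known miRNAs with a listed pair in the small RNA library against the raw degradome reads summed over its pairs (both axes log); open points are miRNAs under 10 reads. miR395, at 17 and 256 reads, and miR827, at 269 and 525, lie towards the upper left, where degradome reads per miRNA read are high, and miR156, at 1910151 and 113, lies at the far right and is last of the 114 in this order.

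miR395 and miR827 both lay above most known miRNAs with at least 10 reads in this respect. Among the 36 known miRNAs with at least 10 reads and a listed pair, the median was 0.0562 degradome reads per miRNA read. A site listed with several names counted in full for each of them. Thus miR165 and miR166 both had 80 degradome reads, and miR156 and miR157 both had 113. No site of miR395 or miR827 was shared in this way. miR395 was second in this order, behind miR397 at 143 (102 to 208). After it came miR1509 at 10.4 (7.25 to 15.5), from which miR395 did not differ beyond counting error. These 3 had 33 (miR397), 17 (miR395) and 32 (miR1509) miRNA reads, so their values rest on small divisors. miR827 was eighth, and did not differ from miR394 before it, at 2.11 (1.41 to 3.21). After it came miR1023 at 0.929 (0.402 to 2.13), whose interval includes the value of miR827. Among all 114 known miRNAs with a listed pair the median was 1, and miR395 was sixth and miR827 at place 49, since the miRNAs read 1 or 2 times reach high values from few reads. miR399, with 142 reads, and miR2111, with 3, had no listed pair and so no such value.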

How the data were processed

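The list of miRNAs holds raw read counts per sequence as deposited. The authors had removed low-quality, adaptor, short and poly(A) reads and reads of other RNA classes, named known miRNAs by alignment to plant miRNAs of miRBase, and predicted others with MIREAP after mapping reads to the genome with SOAP. Which genome release served is not stated in the sources at hand. The deposited degradome list gives counts as raw reads at each site, a signal of normalized reads that is never above the raw reads, a p-value, a category and an alignment score, all made by the authors with CleaveLand 3.0 and targetfinder. Neither a threshold nor the depth of the degradome library is stated there. In 11 cells the aligned stretch had been stored as a date, from which start (month) and end (day) were recovered. None belongs to the miRNAs described here.

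The libraries were told apart by the file attached to each sample. Counts are given with exact Poisson intervals, shares with Clopper-Pearson intervals and ratios of 2 counts with the exact interval of the conditional binomial, all checked on simulated data. The cut's position in the miRNA was found by subtracting the cleavage site from the last aligned nucleotide and adding 1. Mature sequences come from the deposited list. Hairpin sequences and gene descriptions come from the study's supplementary tables, of which the copies used here are incomplete, and hairpins were folded with RNAfold 2.7.2. Statistics were run in SciPy 1.17.1 and NumPy 2.4.6 under Python 3.11.15, tables in pandas 2.3.3 and plots in matplotlib 3.10.9. By rule, all 4 miRNAs, all their pairs and the neighbours of each in an order are named, and the miR399-like arms were added after their sequences were seen. Members, lists and tests were chosen with earlier results of these data known.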

Additional observations from a re-analysis of the deposited data

How the results depend on the processing

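Of 30 alternatives over 17 results, 24 left the value within its counting interval or its count unchanged. Several of these could not have moved a value, so the count of 24 is no measure of robustness. No listed sequence lay within 3 nt of a member, and a floor of 5 reads cannot move the rank of a better-read member. For miR827 there was 1 pair, with equal raw and normalized reads. Benjamini-Hochberg adjustment over all pairs left 0 of the 2 called pairs. A p under 0.01, category 0 only, a score of at most 3 and at least 5 reads each kept 2. These settings are no separate support for the call. All 68 category 0 pairs of the list had a p under 0.05, and sites with 525 and 254 reads cannot fail a floor of 5 reads. Leaving miR156 and miR157 out of the total raised the share of listed reads to 0.117% for miR827, 0.0620% for miR399, 0.00742% for miR395 and 0.00131% for miR2111, since these names hold most of the reads. Adding the like 3p arms to miR399, chosen after the sequences were seen, lowered the ratio of miR827 to miR399 to 1.28. Predicted miRNAs within 3 nt of a member added no read. With normalized reads the ratio of ATP sulfurylase to BAS1 became 508, within its counting interval. A single library of each kind and 1 to 17 reads behind miR395, miR2111 and the minor sites of miR395 limit these values. The rank of miR2111 among miRNAs with at least 5 reads could not be given, as it had 3. No paired analysis was possible because each kind of library has 1 sample.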

Other observations

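The degradome list paired the opposite arms of the miR399-like hairpins with transcripts, but not the arms that resemble miR399. The 5p arm shared by m0094 and m0110 was listed with ppa000011m, with 1 read at nucleotide 7788 and a CleaveLand p of 0.479. The 5p arm of m0177 was listed with 3 transcripts and 6 reads in all. Of these, ppa018282m had 4 reads at nucleotide 699 (CleaveLand p 0.538), and ppa007317m and ppa006690m had 1 read each, each with a normalized value of 0.5. None of these pairs had a p under 0.05. The 3p arms of the 3 hairpins, like miR399, had 0 listed pairs, and so did the 5p arm of m0247 opposite miR827. A missing pair says only that the list holds none, since the list gives no reads for sites that were not reported.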
